A study of Mus musculus with 3 samples.

Results

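Albumin and other carrier proteins of the plasma were followed in the liver RNA of homozygous apoE knockout male mice given 1 of 3 diets. The group was defined by 9 named genes (Alb, Ttr, Rbp4, Trf, Ahsg, Gc, Fetub, Ambp and Afp), and every probe set carrying one of these symbols was taken. The array annotation held 7 such probe sets for 6 of the 9 genes, among 10833 probe sets with a single symbol for 8251 genes in all. Afp had 2 probe sets, and Alb, Ttr, Rbp4, Ahsg and Ambp had 1 each. Trf, Gc and Fetub carried no probe set in that annotation and have no values here.

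The mice had a C57BL/6JxOLA129 background, and all of them, controls included, lacked apolipoprotein E. They were 3 months old when 29 animals were allotted to the diets and were then fed for 12 weeks. Every diet supplied 30% of its energy as fat and differed in a fatty acid given at 1.0% by weight. This was linoleic acid in the control diet (10 mice), its conjugated c9,t11 isomer in the c9,t11-CLA diet (10 mice) and its conjugated t10,c12 isomer in the t10,c12-CLA diet (9 mice). The design text calls the diets semi-purified, while the sample descriptions speak of a western diet. From liver, 8 µg of total RNA was labelled and hybridised to 1 Affymetrix array per diet. The sources used here do not say whether an array held 1 mouse or a pool. With 1 array per diet no difference below has a replicate check, and none was tested. In bulk liver RNA, more cells of a type and more RNA per cell cannot be told apart.

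Albumin is the most abundant protein of adult plasma, where it holds osmotic pressure and carries fatty acids, bilirubin and drugs. Transthyretin (Ttr) carries thyroid hormone and docks retinol-binding protein 4 (Rbp4), the carrier of retinol from liver stores. Transferrin (Trf) carries iron, the group-specific component (Gc) carries vitamin D metabolites, and Ambp encodes a precursor that is cleaved into alpha-1-microglobulin and bikunin. Fetuin-A (Ahsg) binds calcium phosphate in plasma, and fetuin-B (Fetub) is its paralog. Alpha-fetoprotein (Afp) is the albumin-like carrier of the fetus and is shut down in the liver after birth. Alb, Afp and Gc belong to the albumin family, and hepatocytes are the main source of all these proteins.

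The sequences just upstream of Alb and Afp are shown because these related genes lie side by side on chromosome 5 and stood at the bright and the dim end of the arrays. Those of Ahsg and Ambp are shown as 2 further members with bright probe sets. Each is the stretch of 250 bases that ends at the base before the RefSeq transcript start (build GRCm38.p6), written 5′ to 3′ on the strand of the gene. Alb lies at chr5:90460620-90460869 (plus strand), Afp at chr5:90490464-90490713 (plus strand), Ahsg at chr16:22891765-22892014 (plus strand) and Ambp at chr4:63154173-63154422 (minus strand). Capitals mark GTTAAT on either strand, the core of the site bound by the liver factor HNF1.
Alb: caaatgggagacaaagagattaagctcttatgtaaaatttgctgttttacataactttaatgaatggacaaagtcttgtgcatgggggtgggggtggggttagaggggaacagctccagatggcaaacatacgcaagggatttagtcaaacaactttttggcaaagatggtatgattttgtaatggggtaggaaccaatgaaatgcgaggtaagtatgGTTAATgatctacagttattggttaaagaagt
Afp: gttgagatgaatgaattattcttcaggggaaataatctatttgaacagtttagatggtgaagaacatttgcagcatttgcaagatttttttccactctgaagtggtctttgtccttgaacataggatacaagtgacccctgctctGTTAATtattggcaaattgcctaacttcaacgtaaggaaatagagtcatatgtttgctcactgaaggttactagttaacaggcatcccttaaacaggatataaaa
Ahsg: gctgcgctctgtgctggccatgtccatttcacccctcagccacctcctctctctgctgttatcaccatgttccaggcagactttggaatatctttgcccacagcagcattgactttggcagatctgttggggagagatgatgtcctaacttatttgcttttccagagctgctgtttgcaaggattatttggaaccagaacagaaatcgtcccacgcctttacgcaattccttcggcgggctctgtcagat
Ambp: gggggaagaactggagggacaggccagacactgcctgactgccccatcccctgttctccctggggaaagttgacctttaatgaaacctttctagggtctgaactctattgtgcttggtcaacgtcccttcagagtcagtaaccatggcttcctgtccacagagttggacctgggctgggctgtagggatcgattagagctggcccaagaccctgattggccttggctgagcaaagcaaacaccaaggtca

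GTTAAT occurred once upstream of Alb, 32 to 27 bases before the start, and once upstream of Afp, 105 to 100 bases before it. It also occurred once in the window of Gc, 52 to 47 bases before the start. The windows of Ahsg, Ambp, Fetub and Rbp4 did not hold these letters, and neither did their reverse strand. Of 32851 windows of this length in the RefSeq table, 6.43% held GTTAAT. The C/EBP core TTNNGNAA occurred 4 times upstream of Alb, once upstream of Afp and, read on both strands over the same letters, 2 times upstream of Ahsg. It was in 36.8% of all windows. The forkhead core TGTTTNC occurred once each upstream of Alb, Afp, Ahsg and Ambp and was in 17.8% of all windows. Of the 4 genes shown, CCAAT occurred 2 times before Alb and once each before Afp and Ambp, against 33.8% of all windows. TATAAA occurred once before Afp, against 12.4%. Among the members searched but not shown, TATAAA, TTNNGNAA and TGTTTNC also occurred before Fetub and Rbp4, and CCAAT before Gc, Fetub and Rbp4. In the 4 stretches shown, matches of different motifs did not overlap. A match is a description of letters, and no binding was measured.

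Each value is a deposited MAS5 signal, a hybridisation intensity on a linear scale. The signal of a probe set depends on its probes, so signals are set against the same probe set on another array, and a place within an array describes brightness and not transcript abundance. The ceiling, the highest signal on an array, belonged to a probe set of plasminogen (Plg) on each array and was 70778 on control, 135007 on c9,t11-CLA and 71111 on t10,c12-CLA. As floor served the median signal over the arrays together, 490.3. A probe set was measured in a comparison when it was above the floor on both arrays, and 2-fold, a log2 difference of 1, was the size used for counting. The spread of a single log2 difference, taken from the brightest 2 probe sets of genes that had several, was an SD of 0.49 for c9,t11-CLA against control (529 pairs), 0.40 for t10,c12-CLA against control (566 pairs) and 0.50 between the CLA diets (553 pairs). It does not hold the variation between mice. The 9 hepatocyte genes with a probe set were all above the floor on every array. Of the 12422 probe sets that are not array controls, 6046 were above it on control, 6408 on c9,t11-CLA and 6180 on t10,c12-CLA. Passing the floor is thus a weak check of liver identity. Of 5 bile duct markers with a probe set, Krt19, Krt7 and Epcam were below it on every array. Krt8 and Krt18, keratins that hepatocytes also make, were above it on every array, with log2 differences from control of 0.03 and 0.08 on c9,t11-CLA and of 0.94 and 0.23 on t10,c12-CLA. Apoe, the gene knocked out in all the mice, gave 6570 on control, 8695 with c9,t11-CLA and 4288 with t10,c12-CLA by its brighter probe set, so signal was present despite the knockout label; where its probes fall relative to the targeted stretch was not examined.

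Albumin was higher on the c9,t11-CLA array than on either other array. The signal of Alb (gene identifier 11657, GRCm38.p6 chr5:90460870-90476602) was 28437 on control, 101163 on c9,t11-CLA and 31244 on t10,c12-CLA. The control and t10,c12-CLA arrays thus gave nearly the same signal, and the c9,t11-CLA array stood apart. Alb was 3.56-fold higher on c9,t11-CLA than on control, a log2 difference of 1.83. Among the 4932 measured probe sets, 14 had a higher difference. Between t10,c12-CLA and control the log2 difference was 0.14, within the probe-set spread. Between the isomers it was -1.70, 3.24-fold lower on t10,c12-CLA, and 15 of 5017 measured probe sets were lower still.

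Against the ceilings, Alb stood at 40.2% on control, 74.9% on c9,t11-CLA and 43.9% on t10,c12-CLA. Its rank among the 12422 probe sets that are not array controls was 186 on control, 6 on c9,t11-CLA and 143 on t10,c12-CLA. A rank does not depend on scaling, and it was highest on the c9,t11-CLA array. Signals of other bright probe sets were also higher on that array. The 100 brightest probe sets outside the members had a median log2 difference of 0.49 from control on c9,t11-CLA, with 84 above 0, and of -0.01 on t10,c12-CLA. Alb was 1.34 above that c9,t11-CLA median, and 1 of these 100 probe sets had a larger difference than Alb. Alb was at least 2-fold higher on c9,t11-CLA than on control under every other scaling of the arrays, with log2 differences from 1.36 to 1.64. A pseudocount left it at 1.83. Other floors or another choice of probe sets could not move this difference, so they are no check of it.

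Other features of the c9,t11-CLA array moved with this result. The 9 spike control probe sets averaged 0.47 higher (log2) than on control, with ratios from 1.02 to 2.12, and on t10,c12-CLA they averaged 0.12 higher. With the arrays scaled on these spikes, the log2 difference of Alb from control was 1.36. The 5′ probe set of 18S ribosomal RNA gave 484 on control, which is under the floor, 2017 with c9,t11-CLA and 494 with t10,c12-CLA, just above it. The middle probe set of 18S gave 99.8, 989.1 and 100.6 in the same order, above the floor with c9,t11-CLA only. The 3′ probe set of 18S did not share this pattern, at 2308.6, 2639.8 and 1225.8. The 3′ to 5′ ratio of beta-actin was 1.40, 1.89 and 1.35. That of Gapdh was not raised on c9,t11-CLA, at 1.06, 0.98 and 0.78. The part of RNA quality in the result was not tested. Of 9 hepatocyte markers, 8 were above 0 on c9,t11-CLA against control, with a median of 0.66. The 100 brightest probe sets outside the members had a median of 0.49 there, with 84 above 0. The summed signal of the hepatocyte markers was 277666, 465562 and 270062 on the 3 arrays in the same order. Cyp2e1 alone gave 3021.6, 39034.5 and 13410.7 of these sums. The 11 macrophage markers summed to 64970, 54222 and 89985. On t10,c12-CLA against control 8 of the 9 measured were above 0, with a median of 0.46. All measured probe sets had a median of -0.004 there, and 48 of the 100 brightest outside the members were above 0. C1qb (0.27) and Csf1r (0.78) had second probe sets at -0.47 and -0.17. The part of cell make-up was not tested.

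**Figure D1:**
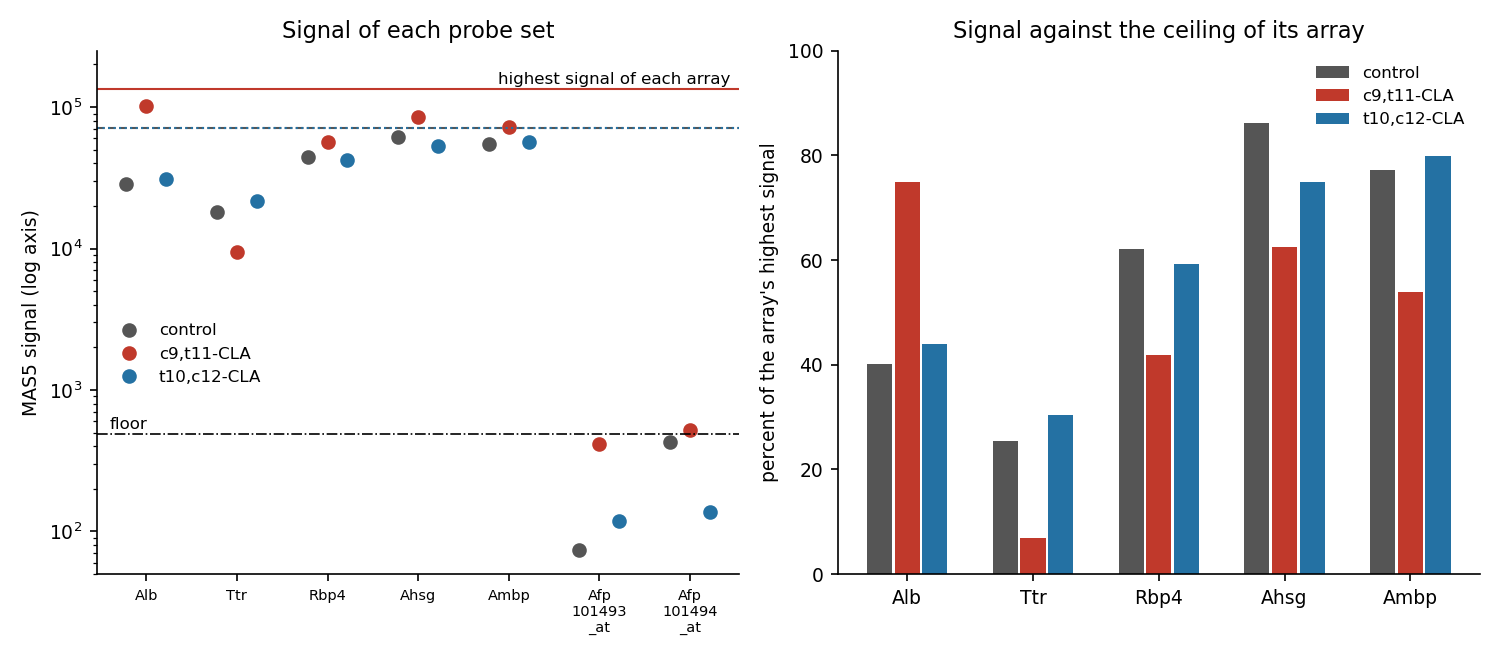
Left, the MAS5 signal (log axis) of each member probe set by diet (grey control, red c9,t11-CLA, blue t10,c12-CLA), with 1 point per array, the highest signal of each array as a horizontal line in its colour and the floor as a dash-dotted line. Right, the signals of the 5 bright members as a percent of the highest signal of the same array; Alb has its highest share, 74.9%, on c9,t11-CLA, where the other 4 have their lowest.

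Transthyretin went the other way. The signal of Ttr (gene identifier 22139) was 17983 on control, 9385 on c9,t11-CLA and 21645 on t10,c12-CLA. It was thus lowest on the array where Alb was highest, and the other arrays lay close together. Ttr was 1.92-fold lower on c9,t11-CLA than on control, a log2 difference of -0.94, which missed the 2-fold size. Of the 4932 measured probe sets, 165 were lower. On t10,c12-CLA its log2 difference from control was 0.27, within the probe-set spread. Between the isomers its signal on t10,c12-CLA was 2.31-fold that on c9,t11-CLA, a log2 difference of 1.21, and 100 of 5017 measured probe sets were higher.

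Ttr stood at 25.4% of the ceiling on control, 6.95% on c9,t11-CLA and 30.4% on t10,c12-CLA. Its rank was 329, 602 and 246 in the same order. Its mean signal placed Ttr between the brightest 1% and the brightest 5% of probe sets, where the other 496 probe sets had a median log2 difference of -0.06 between c9,t11-CLA and control and 22 of them were at least 2-fold lower. The scaling decided on which side of 2-fold Ttr fell against control. Its log2 difference was -1.13 with equal array medians, -1.41 with equal spikes and -1.40 with an equal bright end, but -0.88 after quantile normalization. Between the isomers the log2 difference of Ttr was past 2-fold under every other scaling, from 1.23 to 1.70, and was 1.20 with a pseudocount. Other floors or another choice of probe sets could not move it.

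Rbp4, the retinol carrier that circulates bound to transthyretin, did not share the pattern of Ttr. The signal of Rbp4 (gene identifier 19662, chr19:38116620-38125321) was 44019 on control, 56549 on c9,t11-CLA and 42193 on t10,c12-CLA. The c9,t11-CLA array was the highest and the others lay close together. Its log2 difference from control was 0.36 on c9,t11-CLA and -0.06 on t10,c12-CLA, and between the isomers it was -0.42, all inside 1 SD of the probe-set spread. On c9,t11-CLA it was 0.13 below the median of the 100 brightest probe sets. It stood at 62.2%, 41.9% and 59.3% of the ceiling and at ranks 53, 70 and 63 on control, with c9,t11-CLA and with t10,c12-CLA. The c9,t11-CLA array thus gave Rbp4 its highest signal, its lowest share of the ceiling and its lowest place by rank.

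Fetuin-A and the Ambp precursor had differences close to those of Rbp4. The signal of Ahsg (gene identifier 11625, chr16:22892015-22899451) was 60989 on control, 84463 on c9,t11-CLA and 53260 on t10,c12-CLA. Its log2 difference from control was 0.47 on c9,t11-CLA and -0.20 on t10,c12-CLA. Between the isomers it was -0.67, which exceeds the probe-set SD of 0.50 but is short of 2-fold, and 38 of the 100 brightest probe sets were lower still. Ahsg stood at 86.2%, 62.6% and 74.9% of the ceiling, with ranks of 4, 17 and 17. It was high on every array, and its place was highest on control.

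The signal of Ambp (gene identifier 11699, chr4:63143275-63154172) was 54703 on control, 72647 on c9,t11-CLA and 56742 on t10,c12-CLA. The log2 difference from control was 0.41 on c9,t11-CLA and 0.05 on t10,c12-CLA, and -0.36 between the isomers, all inside the probe-set spread. Ambp stood at 77.3%, 53.8% and 79.8% of the ceiling, with ranks of 13, 37 and 9. As with Rbp4, a higher signal on c9,t11-CLA came with a lower place on that array.

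The direction of these 3 members on c9,t11-CLA turned with the scaling. As deposited, Rbp4, Ahsg and Ambp were 0.36 to 0.47 above control. After quantile normalization they were at -0.12, -0.25 and -0.25. With equal spikes they stood at -0.11, 0.00 and -0.06, and with an equal bright end at -0.10, 0.00 and -0.06. With equal medians they were 0.17, 0.27 and 0.21. Neither of the opposite differences, Alb above and Ttr below control, changed sign under any of these scalings.

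**Figure D2:**
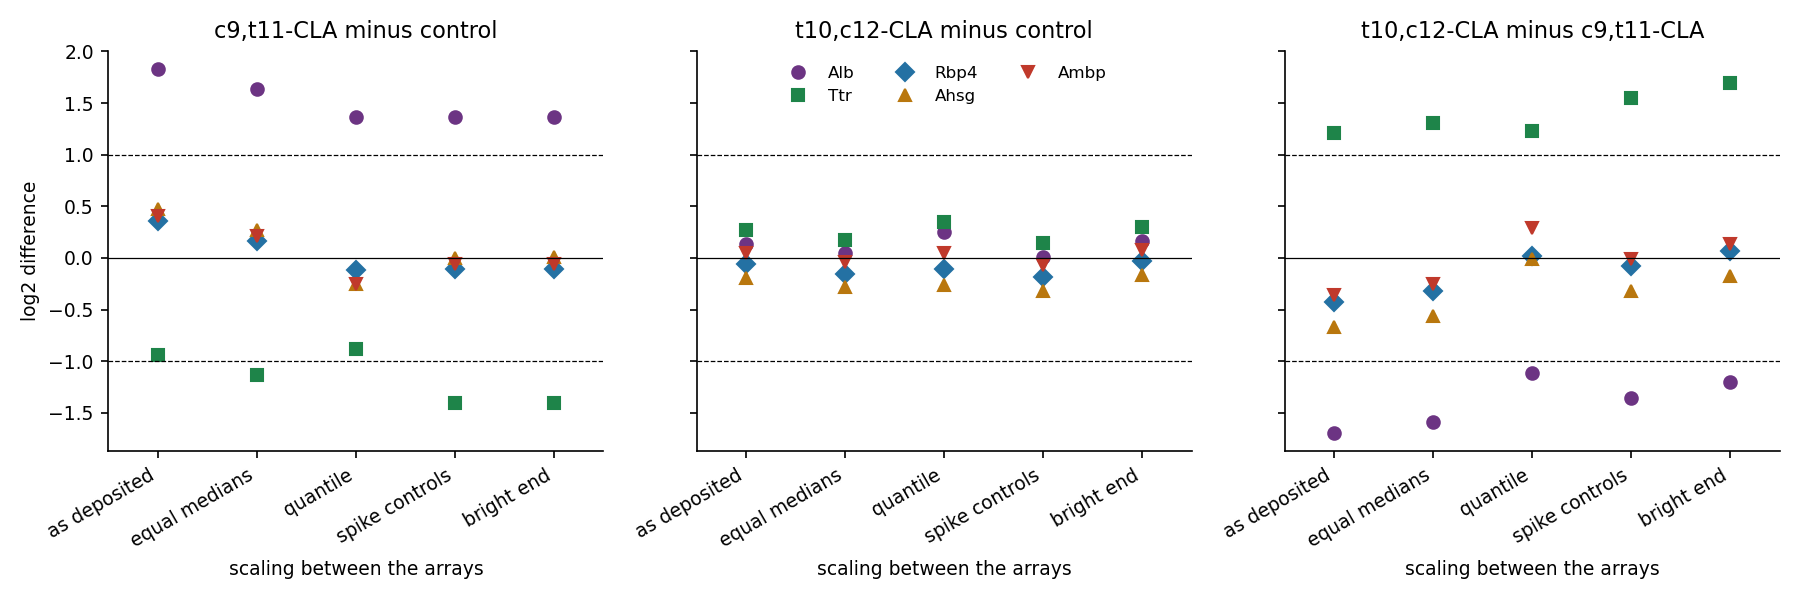
Log2 differences of the 5 bright members (points) in each comparison (panels) with the signals as deposited and under 4 other scalings of the arrays; dashed lines mark 2-fold. On c9,t11-CLA against control Alb lies between 1.36 and 1.83 and Ttr between -1.41 and -0.88, while Rbp4, Ahsg and Ambp lie between -0.25 and 0.47 on both sides of 0.

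Alpha-fetoprotein was near or below the floor on every array. One probe set of Afp (gene identifier 11576, chr5:90490714-90508907) gave 74.5 on control, 415.7 on c9,t11-CLA and 117.7 on t10,c12-CLA. The other gave 432.1, 523.7 and 137.3 in the same order. The latter passed the floor with c9,t11-CLA and with neither other diet, so it was at least 1.07-fold higher there than on control and on t10,c12-CLA. Signals under the floor have no order, and no other difference is given for Afp. Both probe sets lay below 1% of the ceiling on each array.

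Of the 7 member probe sets, 5 were measured in each comparison and both Afp probe sets were not. On c9,t11-CLA against control 1 of the 5, Alb, was at least 2-fold higher, where 3.24% of all 4932 measured probe sets were, and 0 were 2-fold lower, where 2.76% of all were (6.00% in either direction). With 5 probe sets these counts are not a share to be read against the background. The split of all calls moved with the scaling. Higher probe sets made up 54.1% of the 2-fold calls as deposited, 26.4% with equal medians, 46.6% after quantile normalization, 6.34% with equal spikes and 6.68% with an equal bright end. The median of the 5 was 0.41, beside 0.03 over all measured probe sets. Equal medians lowered every c9,t11-CLA difference from control by 0.20 (log2), so Alb and Ttr are also given above relative to other bright probe sets.

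On t10,c12-CLA against control 0 of the 5 were 2-fold in either direction, where 2.18% of 5037 measured probe sets were higher and 1.87% lower (4.05% together). The differences of the members ran from -0.20 for Ahsg to 0.27 for Ttr, with a median of 0.05, beside -0.00 over all. Higher probe sets made up 53.9% of all 2-fold calls as deposited, 38.8% with equal medians, 53.2% after quantile normalization, 35.8% with equal spikes and 59.1% with an equal bright end. All 5 members lay inside 1 SD of the probe-set spread on this diet.

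The isomers were given at the same dose and for the same time, and their pair of conjugated double bonds sits at other carbons, with cis and trans in the opposite order. Set against c9,t11-CLA, 1 of the 5 members, Ttr, passed 2-fold upwards on t10,c12-CLA, as 3.43% of 5017 measured probe sets did, and 1, Alb, downwards, as 2.65% did (6.08% together). The median was -0.42, beside -0.05 over all. Higher probe sets made up 56.4% of all 2-fold calls as deposited, 72.6% with equal medians, 61.3% after quantile normalization, 89.9% with equal spikes and 95.1% with an equal bright end. Among the 100 brightest probe sets outside the members, none had a difference as high as that of Ttr or as low as that of Alb. Ttr was not itself among the brightest 100 by mean signal.

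**Figure D3:**
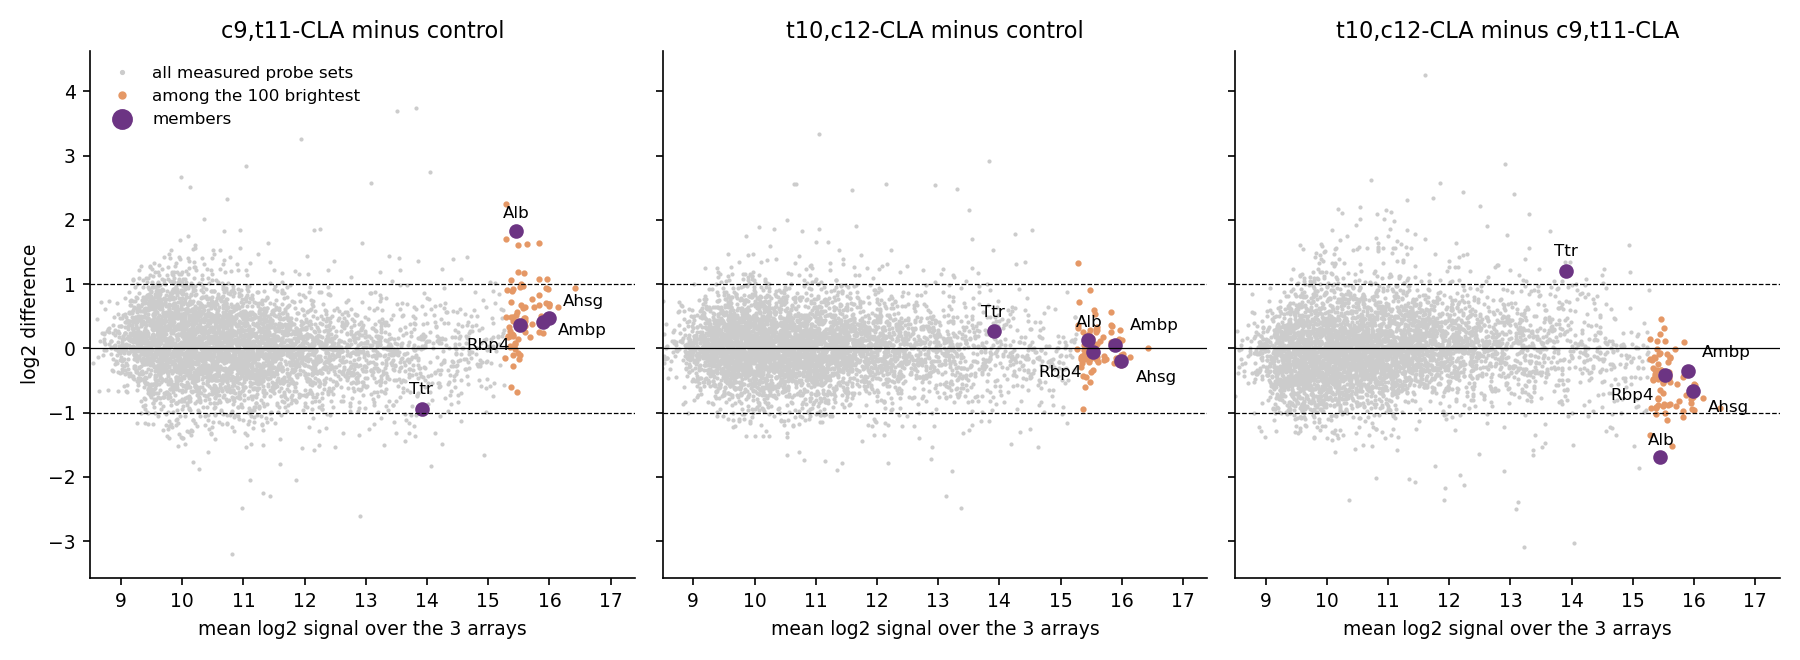
Log2 difference (vertical) against mean log2 signal over the 3 arrays (horizontal) for all measured probe sets (grey), those among the 100 brightest that carry 1 gene symbol (orange) and the 5 measured member probe sets (purple, named), 1 panel per comparison; dashed lines mark 2-fold. On c9,t11-CLA against control the bright end lies above 0 with a median of 0.49, Rbp4, Ahsg and Ambp lie within it, Alb lies above at 1.83 and Ttr below at -0.94.

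Genes whose pattern over the 3 arrays was nearest to that of Alb were sought among 482 genes in the brightest 5%, by the distance between their pairs of log2 differences from control. The 5 nearest were Saa2 (distance 0.47), Apcs (0.48), Apoa2 (0.49), Gstm5 (0.59) and Mt2 (0.67). Saa2 and Apcs encode acute phase plasma proteins, Apoa2 a protein of high-density lipoprotein, Gstm5 a glutathione transferase and Mt2 a metallothionein. None of the 5 reached the c9,t11-CLA difference of Alb, and the nearest, Saa2, had 1.63. The probe sets of Saa2, Apoa2 and Gstm5 are marked as shared with related sequences, so their signals may include relatives. With 3 arrays such a likeness is a description.

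In the albumin family, Afm, which encodes the vitamin E carrier afamin and is the next gene after Afp, did not follow Alb. Its signal was 4443 on control, 3551 on c9,t11-CLA and 2867 on t10,c12-CLA, with log2 differences from control of -0.32 and -0.63. In the fetuin family, Hrg, a histidine-rich plasma protein, stood at 0.08 and -0.50, and Kng1, the kininogen precursor, at -0.35 and -1.26, against 0.47 and -0.20 for Ahsg.

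Other carriers and binding proteins of the plasma were found on both sides of control on each diet. Of 24 measured genes of 30 listed, 5 were at least 2-fold higher and 1 lower on c9,t11-CLA, with a median of 0.38. Over all measured probe sets 3.24% were higher and 2.76% lower. On t10,c12-CLA 3 of these genes were higher and 5 lower, with a median of -0.29, beside 2.18% and 1.87% over all. Serpina6, lower on both diets (-1.15 and -1.13), had a second probe set at 0.39 and -0.23. Lcn2, higher on both (1.39 and 1.34), had a second at 0.65 and 0.42. Hpx, counted as neither (0.23 and -0.11), had a second at 1.03 and -0.49. The haemoglobin carrier Hp stood at 2.74 and -0.28 from control on c9,t11-CLA and t10,c12-CLA. Igfbp1, which binds insulin-like growth factors, stood at 1.64 and 2.55. Its probe set is marked as shared with related sequences, and its other probe set was not measured in any comparison. The bright probe sets of Pzp, a protease-binding plasma protein, and Itih3, a heavy chain that bikunin from Ambp is joined to, stood at 0.69 and 0.67 on c9,t11-CLA and at 0.12 and -0.33 on t10,c12-CLA.

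Receptors and partners of the members held no 2-fold difference in any comparison, with 8 of 14 listed genes measured on c9,t11-CLA and 7 on t10,c12-CLA. Their medians were 0.31 and -0.28. Over all measured probe sets, 6.00% were 2-fold different from control on c9,t11-CLA and 4.05% on t10,c12-CLA. The transferrin receptor Tfr2, an iron sensor of hepatocytes, stood at 0.37 and -0.38, the asialoglycoprotein receptor subunit Asgr1, which clears plasma glycoproteins, at 0.25 and -0.46, and the secreted chaperone Clu at 0.51 and -0.28 (its second probe set at 0.56 and 0.10). Of the iron list 6 of 13 genes were measured, with medians of 0.15 and -0.07. Hamp, which encodes the iron hormone hepcidin, stood at 0.28 on c9,t11-CLA and at -1.19 on t10,c12-CLA, the only 2-fold difference of that list against control. The ferritin heavy chain gene Fth1 stood at -0.02 and 0.21 (its second probe set at 0.65 and -0.18) and Ireb2, an iron regulatory protein, at 0.37 and -0.53.

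Of the vitamin A, vitamin D and thyroid hormone genes 6 of 21 were measured, with medians of 0.12 on c9,t11-CLA and 0.34 on t10,c12-CLA. Rdh5 was under the floor on both CLA arrays (317.4 and 487.6) and so not measured against control. Its control signal was 1254.4, more than 2-fold above the floor of 490.3. Rxra (0.46 and 0.49) had a second probe set at 0.96 and 1.03. Rdh11 (0.58 and 0.77) had a second at 1.03 and 0.40. Dio1, the liver deiodinase that activates the thyroid hormone carried by transthyretin, gave 3034 on control, 1371 on c9,t11-CLA and 2997 on t10,c12-CLA. Its log2 differences from control were -1.15 and -0.02, beside -0.94 and 0.27 for Ttr. By brightest probe set, Dio1 on c9,t11-CLA was the only 2-fold difference from control among the 6 measured genes. Over all measured probe sets 2.76% were 2-fold lower on c9,t11-CLA. A link between Dio1 and Ttr was not tested. The retinal dehydrogenase gene Aldh1a1 stood at 0.18 on both diets and the retinol dehydrogenase gene Rdh7 at -0.01 and -0.83.

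Among liver transcription factors that act on albumin and its relatives, 15 of 23 listed genes were measured on c9,t11-CLA and 14 on t10,c12-CLA, and none was 2-fold different from control. Their medians were 0.31 and -0.11. Over all measured probe sets, 6.00% and 4.05% were 2-fold different. Nr1i2 of this list was under the floor on control and so not measured against it. Its signal was 1449.9 with c9,t11-CLA, more than 2-fold above the floor of 490.3, and 841 with t10,c12-CLA. Cebpa, a C/EBP factor of mature hepatocytes, stood at 0.04 and -0.10, its stress-induced relative Cebpb at 0.99 and 0.68, and the forkhead factor Foxa2 at 0.20 and -0.89. Of the fetal liver genes, set beside Afp, 5 of 11 were measured, with medians of 0.06 and 0.47. Dlk1 stood at 0.84 and 0.52, Lpl at 0.53 and 0.70 and Aldoa at 0.06 and 0.15. The second probe sets of Lpl (-0.53 and 0.11) and Aldoa (-0.37 and -0.24) differed from these in sign, for Lpl on c9,t11-CLA and for Aldoa on both diets. Pkm stood at -1.07 and 0.47, but its second probe set at 0.09 and -0.17.

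**Figure D4:**
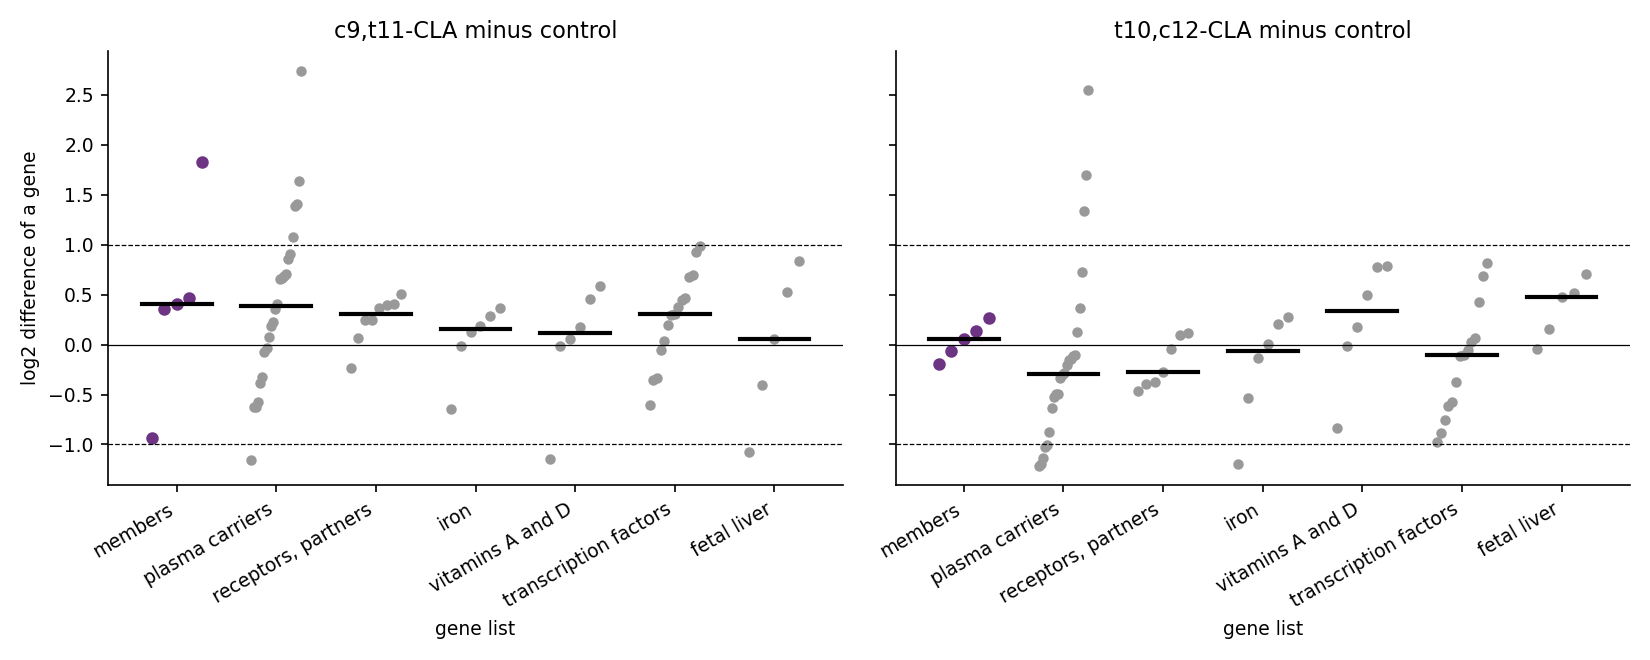
Log2 differences from control on c9,t11-CLA (left) and t10,c12-CLA (right) of the 5 measured members (purple) and of the measured genes of 6 lists (grey), each point 1 gene by its brightest probe set; black bars are medians and dashed lines mark 2-fold. The members have medians of 0.41 and 0.05, the other plasma carriers 0.38 and -0.29.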

How the data were processed

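The authors deposited 1 table of MAS5 signals, a linear probe-set intensity, for 3 arrays, per the labels and the submitters' processing notes. The MAS5 version, detection calls and array build are not given in the sources used here. The trimmed mean (2% at each end) was 1501 on each array, so the values had been scaled before deposit, and they were used as deposited.

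Symbols came from the platform annotation, updated through gene identifiers in a RefSeq table (GRCm38.p6). Of 12488 probe sets, 66 were array controls, 10833 had 1 symbol, 396 several and 1193 none; only those with 1 symbol were named. Outside the members a gene was taken by its brightest probe set. The members, gene lists and settings were chosen with earlier results of these data known; the bands of brightness and the differences relative to the bright end were added after seeing the data. Named genes were all members, the largest 2 differences and the brightest 2 genes of each list, and the 5 patterns nearest to Alb. Some genes were named outside this rule. Serpina6, Lcn2, Hpx, C1qb, Csf1r, Rdh11 and Rxra were named for a second probe set. Nr1i2, Rdh5, Krt19, Krt7 and Epcam were named for a signal under the floor on at least 1 array. Plg was named as the ceiling and Apoe as the gene knocked out.

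Differences are of log2 signal, with no test and no p-value. Alternatives were 4 scalings, 3 floors, a pseudocount of 50, leaving out probe sets marked for cross-hybridisation and 1 probe set per gene. The number of arrays limits the precision. Motifs were searched on both strands in 9 upstream windows of 7 members; the window of Ttr and the protein sequences were not used here. Counting was checked on simulated arrays. Python 3.11.15, numpy 2.4.6, pandas 2.3.3, scipy 1.17.1 and matplotlib 3.10.9 were used.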

Additional observations from a re-analysis of the deposited data

How the results depend on the processing

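Of the 10 alternatives, only the 4 scalings and the pseudocount could move a log2 difference of the 5 measured members. The other alternatives repeat the deposited values and are no check of them. Of 150 recomputed log2 differences of single members, these included, 145 moved by less than the probe-set SD and 5 by more, all 5 after quantile normalization. These were Ambp (-0.25) and Ahsg (-0.25) on c9,t11-CLA against control, and Ambp (0.29), Ahsg (-0.01) and Alb (-1.11) between the isomers. On c9,t11-CLA against control the count of members past 2-fold was 1 as deposited and 2 with equal medians, equal spikes or an equal bright end, each time because Ttr was then 1 member at least 2-fold lower. Without a floor, Afp probe sets entered, and the counts were 2 (2 higher) on c9,t11-CLA, 1 (1 lower) on t10,c12-CLA and 4 (3 lower) between the isomers. After quantile normalization the median of the members on c9,t11-CLA against control was -0.25 and that of the 100 brightest probe sets -0.012; quantile normalization makes the signal distributions of the arrays equal by construction. The median share of the ceiling over the 5 bright members was 62.2% on control, 53.8% with c9,t11-CLA and 59.3% with t10,c12-CLA. It was 80.8%, 81.6% and 77.0% with the signal exceeded by 0.1% of probe sets as ceiling and 72.2%, 69.7% and 70.8% with the mean of the 10 highest signals, and the median rank was 53, 37 and 63. Over all measured probe sets, 2-fold differences on c9,t11-CLA against control numbered 296 as deposited, 599 with equal spikes, 584 with an equal bright end, 1088 with the floor at the 25th percentile, 88 with it at the 75th and 3183 without a floor. On t10,c12-CLA they numbered 204, and 650, 89 and 2332 under those floors; between the isomers 305, with 637 at an equal bright end and 1053, 113 and 2851 under those floors. No paired analysis was possible because there was 1 array per diet and the labels carry no replicate numbers. For the same reason no array could be left out. Signals near the floor limit what can be said of Afp.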

Other observations

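The shift of the c9,t11-CLA array was not even along the range of brightness. Against control, the median log2 difference was 0.48 over 120 probe sets in the brightest 1%, -0.06 over the next 4% (496 probe sets), -0.07 over the next 5% (621), -0.01 between 10% and 25% (1864), 0.12 between 25% and 50% (3105) and 0.60 over the dimmer 6209, members left out. On t10,c12-CLA the same bands had medians of -0.01, -0.12, -0.03, 0.01, 0.02 and 0.22. Alb, Rbp4, Ahsg and Ambp fell in the brightest band, Ttr in the next and both Afp probe sets in the dimmest.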
